A study of Homo sapiens with 19 samples.

Results

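The comparison set V5 ChIP-seq intervals of C4-2 cells that carry a doxycycline-controlled wild-type (WT) E2F1 after doxycycline against the same line untreated. Its members were every interval of the doxycycline list and every interval of the untreated list, 79124 of the 203381 intervals in the 10 lists of the series, from 4 of its 19 libraries. C4-2 is an established prostate cancer cell line, and V5 is a short peptide tag that an anti-V5 antibody recognises. The WT doxycycline group (2 libraries) received 0.25 ug/ml doxycycline for 3 days, and the WT untreated group (2 libraries) received none. All of these cells grew in RPMI medium with charcoal-stripped serum, which is low in steroid hormones. The other lists used here were V5 lists of the WT line with the LSD1 inhibitor GSK2879552 (50 uM for 24 hours), with or without the doxycycline pretreatment, and the 4 corresponding lists of a line carrying E2F1 with the K185R substitution. RB, the retinoblastoma protein, was mapped with an anti-RB antibody in C4-2 cells (2 libraries) and in VCaP, another prostate cancer line (1 library), both untreated.

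E2F1 is a transcription factor that binds DNA together with a DP partner, near the start of many genes for DNA replication and cell cycle entry. RB is a pocket protein: in its underphosphorylated form it binds the activation domain of E2F1 and holds these genes down, so RB reaches chromatin in part through E2F factors. In a tetracycline-controlled line, doxycycline is meant to switch on the introduced gene, here E2F1 with the tag that the antibody sees. Whether the cells already carried some tagged E2F1 before doxycycline, and whether the line was a single clone, is not given in the labels. The names inside the 2 WT lists carry siRB where the label says doxycycline and siNTC where it says untreated. Groups were assigned by the labels, and this conflict between labels and names could not be settled.

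The doxycycline list held 64025 intervals over 13.1 Mb and the untreated list 15099 over 2.80 Mb, a ratio of 4.24 in number. Depth, solved from the deposited values, was 1.40 reads per kilobase with doxycycline and 1.21 in untreated cells, a ratio of 1.15. Both lists reached down to very few reads: the median summit held 5 reads in each, and the lowest held 3. Summits of 5 or fewer reads made up 66.2% of the doxycycline list and 71.5% of the untreated list. The weakest deposited −log10 p was 3.32 in the doxycycline list and 3.83 in the untreated list, so the longer list also admitted weaker intervals. Each group is represented by 1 list made from its merged libraries, so no difference below has a replicate check or a p-value. The Wilson 95% intervals given with some shares cover counting error over intervals only.

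As deposited, most intervals of either list had no counterpart in the other. Of the doxycycline list, 60254 intervals (94.1%, 93.9 to 94.3) overlapped no untreated interval, and these are called gained. Of the untreated list, 11324 of 15099 intervals (74.3 to 75.7%) overlapped no doxycycline interval, and these are called lost. The shared intervals numbered 3771 in the doxycycline list (5.89%) and 3775 in the untreated list (24.3 to 25.7%). Among intervals with −log10 q of at least 5 the untreated share turned: 57.6% of 1471 untreated intervals were shared, while 3416 of 4254 doxycycline intervals were still gained. Gained and lost describe presence in a list and not a measured change in binding.

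Shared intervals reached high summit reads far more often than gained or lost ones. At least 10 summit reads were reached by 590 gained intervals (0.979%) and 152 lost intervals (1.34%). Among shared intervals the number was 980 in the doxycycline list (26.0%) and 879 in the untreated list (23.3%). The median fold enrichment, a ratio of summit reads to local background as the authors' peak caller gave it, was 4.69 for gained and 4.82 for lost intervals. It was 4.83 for shared intervals of the doxycycline list and 4.96 for those of the untreated list, so the medians differed little and the classes parted in their upper tails. Shared summits lay a median of 37 bases apart, and 82.2% lay within 100 bases. Sharing required overlap of intervals with median widths of 209 (doxycycline) and 170 bases (untreated), so short distances follow in part from that rule.

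**Figure D1:**
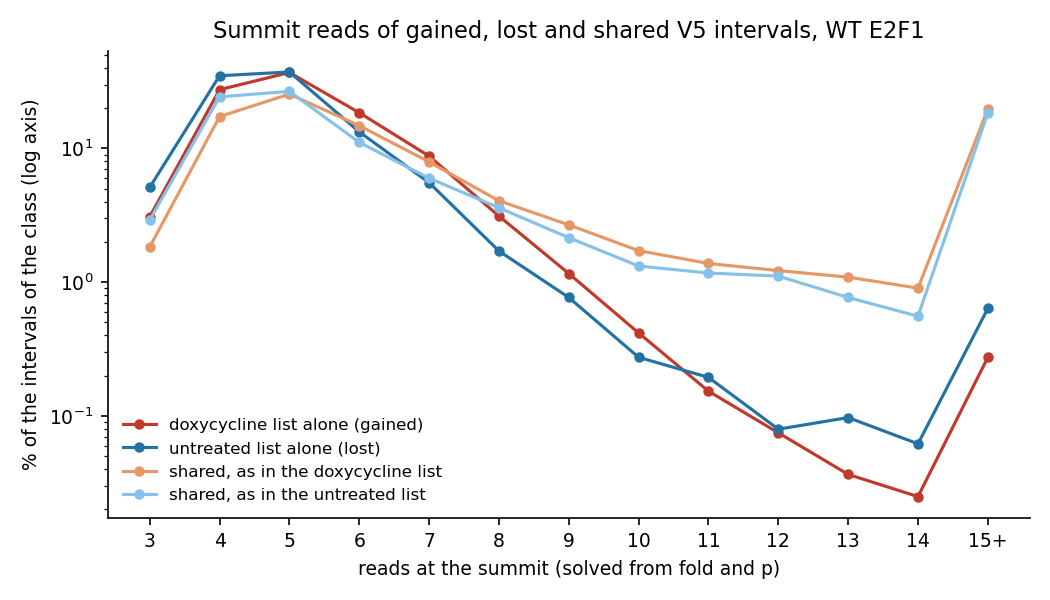
Share of each class of V5 interval (%, log axis) by reads at the summit, with 15 or more reads pooled in the last point. Lines join the points of the intervals gained, lost and shared in the WT lists, and the shared lines stay above the other lines from 8 reads upward.

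Much of the shared upper tail stood on regions of high local background, defined as at least 10 times the lowest background of the list. Such regions, where many libraries pile up reads, held 137 gained and 67 lost intervals. They held 521 shared intervals of the doxycycline list (13.8%) and 534 of the untreated list (14.1%). Without them, 453 gained, 85 lost, 459 shared doxycycline and 345 shared untreated intervals had at least 10 reads, so in the doxycycline list gained and shared strong summits were then about equal in number. Low background names intervals outside such regions, and a V5 interval counted at a low-background RB site below is itself of low background.

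The strongest low-background gained interval spanned 85274565 to 85274862 of chromosome 9 (hg19), and the doxycycline list gave it 16 summit reads, 11.7-fold over background. It lay 66.0 kb from the nearest untreated interval. The K185R lists also had intervals there, with 6 reads under doxycycline, 7 under doxycycline plus GSK2879552 and 13 untreated, while the K185R list with GSK2879552 had none. Next in rank came 24578901 to 24579112 of chromosome 12 (fold 11.6, 15 reads) and 4110239 to 4110561 of chromosome 11 (fold 11.3, 14 reads). All 5 of the strongest gained intervals were also in the K185R untreated list, and none was in either WT list with GSK2879552. Over all gained intervals, 14.6% were in the K185R untreated list. The WT list with doxycycline plus GSK2879552 held 0.828% of them and the WT list with GSK2879552 held 0.571%. None of the 5 strongest overlapped an RB interval of C4-2 or VCaP. Over all gained intervals only 0.380% and 0.261% did, so this count does not set the strongest apart.

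The strongest lost intervals lay mostly at RB sites. The first spanned 96858042 to 96858368 of chromosome 14, and the untreated list gave it 19 summit reads, 11.7-fold over background. It was 18.7 kb from the nearest doxycycline interval. The same place held an interval in 4 other V5 lists, with 14 reads in WT with doxycycline plus GSK2879552 and 13 reads in WT with GSK2879552. It also held an RB interval in C4-2 (17 reads) and in VCaP (15 reads). An interval absent from the doxycycline list was thus present in the WT list that combined doxycycline with the inhibitor.

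The lost interval at 20704291 to 20704526 of chromosome 12 was the most widespread of the 5. It had a fold of 10.2 and 13 reads in the untreated list, and 7 of the 8 V5 lists held it, all but the WT doxycycline list. The other V5 lists gave it 4 to 17 summit reads, with the highest value in the K185R untreated list. C4-2 had a strong RB interval there (67 reads, fold 27.8) and VCaP had none. Of the 5 strongest lost intervals, 4 overlapped a C4-2 RB interval and 4 a VCaP RB interval, and 4 were found in each of the WT lists with GSK2879552. Over all lost intervals, 3.94% overlapped a C4-2 RB interval and 3.27% a VCaP one. The WT list with doxycycline plus GSK2879552 held 2.90% of all lost intervals and the WT list with GSK2879552 held 2.37%.

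The 5 strongest shared intervals occurred in all 8 V5 lists and at C4-2 RB sites. The first, on chromosome 9 at 44070571 to 44070911, had a fold of 28.1 and 82 reads with doxycycline, against 30.9 and 88 reads untreated. It was in all 10 lists, with 112 RB reads in C4-2 and 28 in VCaP. Its local background in the doxycycline list was 8.02 times the lowest background. In both WT lists with GSK2879552 and the K185R list with doxycycline plus GSK2879552 it counted as high background. The others lay on chromosome 9 at 42818970, 70076598 and 70327335 and on chromosome 18 at 50319014, and each was absent only from the VCaP RB list. Their local background in the doxycycline list was 3.87 to 5.80 times the lowest background. Each of these 5 had 47 to 82 summit reads in the doxycycline list, above every low-background gained or lost interval named here. Over all shared intervals of the doxycycline list, 20.6% overlapped a C4-2 RB interval and 11.1% were in all 6 other V5 lists.

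Gained intervals rarely overlapped RB sites, lost intervals did so more often, and shared intervals most often. At C4-2 RB sites lay 229 gained intervals (0.380%, 0.334 to 0.432) and 446 lost intervals (3.94%, 3.60 to 4.31). The share for gained was 0.0965 times that for lost, and the counting intervals did not overlap. That ratio depended on list length: with the doxycycline list shortened to the 15099 intervals of highest −log10 q, the shares were 1.01% of gained and 3.88% of lost intervals. With −log10 q of at least 5 they were 3.78% of gained and 28.7% of lost intervals. Among shared intervals of the lists as deposited, the share was 20.6% in the doxycycline list and 20.8% in the untreated list. VCaP RB sites gave the same order, with 157 gained (0.261%) and 370 lost (3.27%). With low background on both sides, 167 of 60117 gained intervals (0.278%) and 415 of 11257 lost intervals (3.69%) lay at C4-2 RB sites. The shared numbers were then 338 of 3250 (10.4%) in the doxycycline list and 343 of 3241 (10.6%) in the untreated list.

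The difference also held at equal summit reads. With 5 reads, 0.193% of gained and 1.97% of lost low-background intervals lay at a C4-2 RB site. With 6 to 7 reads the shares were 0.293% of gained and 7.74% of lost intervals. With 8 to 9 reads they were 1.01% (26 of 2580 gained) and 26.0% (73 of 281 lost). With 10 to 14 reads they were 5.44% (23 of 423 gained) and 58.7% (44 of 75 lost). From 15 reads on, 7 of 30 gained (23.3%) and 6 of 10 lost intervals (60.0%) lay at RB sites, and there the counting intervals overlapped, 11.8 to 40.9 against 31.3 to 83.2. The share climbed with reads in both classes, and the weak gained intervals make up nearly all of the doxycycline list. The 2 lists differ in depth, so equal reads are not quite equal enrichment.

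**Figure D2:**
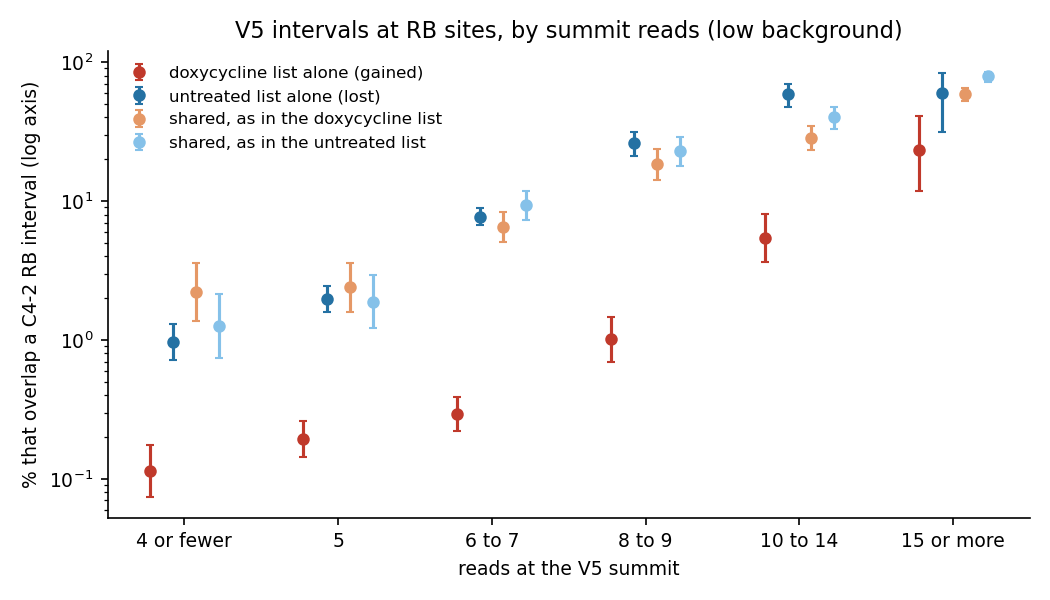
Share of low-background V5 intervals that overlap a C4-2 RB interval (%, log axis), by reads at the V5 summit. Points are gained, lost and shared intervals with 95% Wilson intervals; gained intervals lie under lost ones in each group of reads, from 0.114% against 0.970% at 4 or fewer reads to 23.3% against 60.0% at 15 or more.

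V5 intervals counted at RB sites had to overlap an RB interval, so a short distance between the summits follows in part from that choice. For low-background V5 intervals at RB sites of any background, the median distance was 42 bases for gained and 39 for lost intervals, and 25 and 23 for shared intervals in the doxycycline and untreated lists. Over all intervals, the nearest C4-2 RB summit was a median of 149 kb away from gained and 154 kb away from lost summits. The difference between the classes lay close to the RB summits: 0.719% of gained and 4.66% of lost summits lay within 1 kb of an RB summit, while 39.9% and 40.0% lay within 100 kb.

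Seen from the RB sites, the longer doxycycline list reached fewer of them. Of the 9146 C4-2 RB sites, 1083 (11.8%, 11.2 to 12.5) overlapped a doxycycline interval and 1288 (14.1%, 13.4 to 14.8) an untreated interval. Both lists held 832 of them. The doxycycline list alone held 251 sites, which is 2.74% of all C4-2 RB sites, and the untreated list alone held 456, which is 4.99%. With low background in both assays, 179 sites had a V5 interval with doxycycline alone and 433 untreated alone, out of 8709. At the 437 high-background RB sites, counting V5 intervals of any background, the order was the opposite, with 37 against 18. Over all 9146 sites the gap nearly closed among V5 intervals with −log10 q of at least 5. The doxycycline list then reached 776 sites (8.48%) and the untreated list 811 (8.87%), with 147 and 182 held alone.

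The surplus of the untreated list was wider at RB sites that C4-2 shares with VCaP. Among 5233 low-background RB sites found in both lines, 80 (1.53%, 1.23 to 1.90) had a V5 interval with doxycycline alone and 285 (5.45%, 4.86 to 6.09) untreated alone. Among 3476 sites found in C4-2 alone, the numbers were 99 (2.85%, 2.35 to 3.46) and 148 (4.26%, 3.64 to 4.98). The counting intervals were apart for both kinds of site. Counting V5 intervals of any background, the C4-2-alone numbers were 132 (3.21 to 4.49%) and 152 (3.74 to 5.10%), whose intervals overlapped. Both V5 lists held 221 of the sites of C4-2 alone (6.36%) and 123 of the sites in both lines (2.35%).

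At sites of both lines the surplus grew with RB strength. RB sites were put in 4 groups of like size by the −log10 q of the RB interval. In the strongest group of the sites found in both lines, 32 of 1464 (2.19%) had a V5 interval with doxycycline alone and 138 (9.43%) untreated alone. In the weakest group the shares were 1.15% and 2.13%. At the sites of C4-2 alone the surplus did not grow steadily. From the weakest to the strongest group, doxycycline alone held 10, 24, 31 and 34 of them, and untreated alone held 29, 33, 34 and 52. Both lists held 129 of the 711 strongest sites of C4-2 alone (18.1%), against 73 of the 1464 strongest sites of both lines (4.99%).

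**Figure D3:**
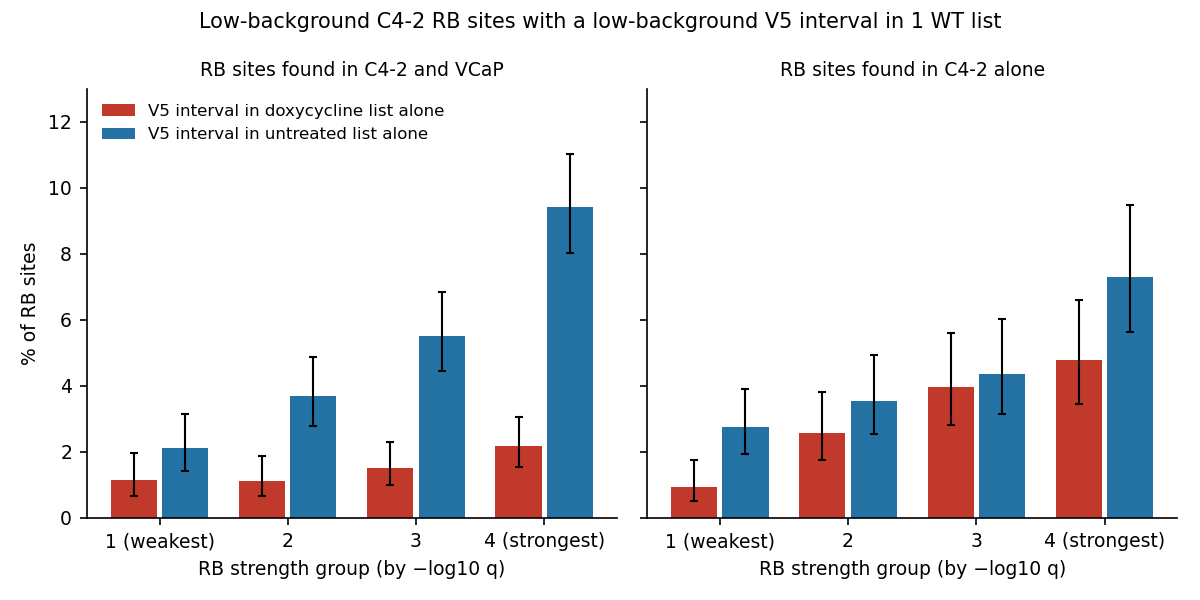
Share of low-background C4-2 RB sites (%) with a low-background V5 interval in the doxycycline list alone or in the untreated list alone, by RB strength in 4 groups, for sites also found in VCaP (left) and in C4-2 alone (right). Bars are shares and lines 95% Wilson intervals; at sites of both lines the strongest group has 2.19% with doxycycline alone and 9.43% untreated alone.

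Where both WT lists held a low-background RB site, their summit reads were close. At all 344 such sites the median summit held 11 reads with doxycycline and 11 untreated, at a depth ratio of 1.15. Doxycycline had more reads at 167 of them, untreated at 135, and 42 were equal. At the 123 sites found in both cell lines the medians were 7 reads with doxycycline and 8 untreated, with more reads at 47 sites with doxycycline and at 56 untreated. At the 221 sites of C4-2 alone the medians were 15 reads with doxycycline and 13 untreated, with more reads at 120 sites with doxycycline and at 79 untreated. Away from RB sites, 2906 shared low-background intervals had a median of 5 reads in each list, with more reads at 1432 with doxycycline and at 765 untreated. By reads, the sites of both cell lines were the one set of these in which untreated summits more often held the higher number. By fold, untreated was higher at 193 of the 344 sites and doxycycline at 151. At the sites of both cell lines fold was higher at 82 untreated and at 41 with doxycycline. The sites of C4-2 alone were near even, with 111 untreated and 110 with doxycycline. Away from RB sites fold was higher at 1463 with doxycycline and at 1443 untreated.

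The strongest gained intervals at RB sites were found again in other V5 lists, the WT lists with the inhibitor among them. The strongest low-background gained interval at an RB site spanned 108006683 to 108006927 of chromosome 9 and held 10 reads (fold 8.49). The C4-2 RB interval there had 31 reads and the VCaP one 22. WT with doxycycline plus GSK2879552 gave 6 reads there, and WT with GSK2879552 gave 8. The third in rank, on chromosome 7 at 63767432 to 63767755 with 12 reads, was in the same 2 WT lists with 6 and 11 reads. The second, on chromosome 5 at 46329685 to 46329986 with 20 reads, was in 7 V5 lists, and its local background was 9.31 times the floor, just inside the limit for low background. All 5 strongest gained intervals at RB sites were in the WT list with doxycycline plus GSK2879552. The WT GSK2879552, K185R untreated and K185R GSK2879552 lists each held 4 of them. Each of the K185R lists with doxycycline held 2. These 5 are not typical of their class. Of all 167 low-background gained intervals at low-background RB sites, the WT list with doxycycline plus GSK2879552 held 28.1%. The WT list with GSK2879552 held 37.1% of the 167, and the K185R lists held 2.99 to 24.6%.

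Most gained and most lost intervals were found in no other V5 list. No other V5 list held 46833 gained intervals (77.7%) and 8528 lost intervals (75.3%), against 1533 shared intervals of the doxycycline list (40.7%). All 6 other V5 lists held 3 gained and 2 lost intervals, against 419 shared ones (11.1%). The longest of the other lists held gained and lost intervals in nearly equal shares. The K185R doxycycline list held 6.38% of gained and 6.32% of lost intervals, and the K185R untreated list held 14.6% of gained and 15.3% of lost intervals. Gained intervals were thus found less often in the K185R list with doxycycline, which has 22328 intervals, than in the untreated one, which has 55681. These lists cover 4.29 Mb and 10.1 Mb, and the overlap that random placement would give was not calculated.

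Lost intervals with more reads recurred in the WT lists with inhibitor and in the K185R untreated list. Among low-background intervals with 8 or more reads, 2.60% of 3033 gained and 25.7% of 366 lost intervals were in the list with doxycycline plus GSK2879552. In the list with GSK2879552 alone the shares were 2.14% of gained and 22.7% of lost intervals. The K185R untreated list, with 55681 intervals, held 21.0% of these gained and 26.5% of these lost intervals. The K185R doxycycline list held 10.4% and 13.7% of them. At RB sites the classes lay closer together in the WT lists with inhibitor. There, 28.1% (21.9 to 35.4) of 167 gained and 40.5% (35.9 to 45.3) of 415 lost intervals were in the list with doxycycline plus GSK2879552. The list with GSK2879552 alone held 37.1% of the gained and 36.9% of the lost intervals at RB sites. Both classes were thus found again at RB sites with and without doxycycline under the inhibitor.

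**Figure D4:**
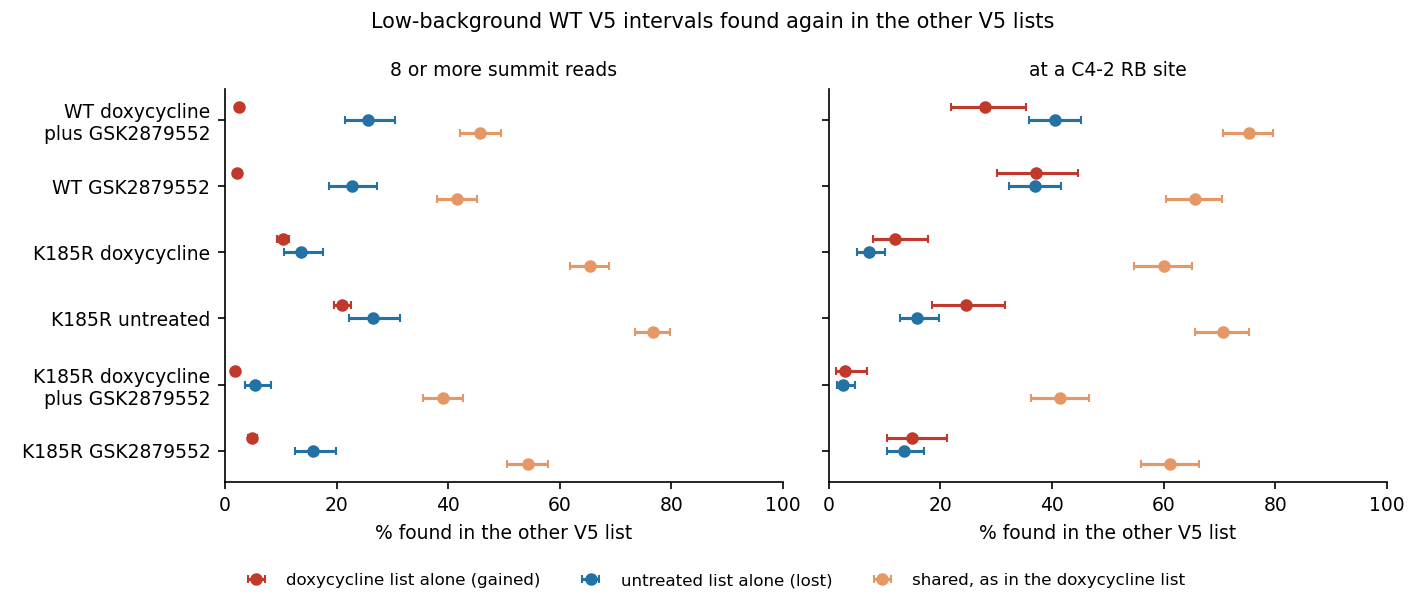
Share of low-background WT V5 intervals found in each of the 6 other V5 lists (%), for intervals with 8 or more summit reads (left) and for intervals at a C4-2 RB site (right). Points are gained, lost and shared intervals with 95% Wilson intervals; in the 2 WT lists with GSK2879552 the gained points lie at 2.60% and 2.14% on the left and at 28.1% and 37.1% on the right.

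RB sites of both cell lines that 1 WT list held alone recurred under the inhibitor, whichever list held them. Of the 80 held by the doxycycline list alone, 33.8% were in the list with doxycycline plus GSK2879552 and 42.5% in the list with GSK2879552. Of the 285 held by the untreated list alone, 43.5% and 43.2% were in those lists. Of the 4702 that neither WT list held, 6.85% and 5.47% were. The K185R lists held fewer: the K185R untreated list had 7.50% of the 80, 12.6% of the 285 and 0.638% of the 4702. At RB sites of C4-2 alone the K185R untreated list had 41.4% of the 99 held with doxycycline alone and 27.7% of the 148 held untreated alone. That list had 2.57% of the 2763 that neither WT list held.

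Doxycycline and untreated intervals were spread over the chromosomes in similar proportion. The number of doxycycline intervals per untreated interval was 3.32 on chromosome 21, 4.64 on chromosome 3 and a median of 4.33 over the 22 autosomes. It was 3.65 on chromosome X. Chromosome Y stood apart with a ratio of 1.50 (178 against 119 intervals), where 85.7% of the untreated intervals were shared, and where 65 doxycycline and 55 untreated intervals had high background. Among the autosomes, doxycycline intervals were densest on chromosome 17, with 26.4 per Mb, and sparsest on chromosome 4, with 15.7 per Mb. Among them the untreated list was also densest on chromosome 17, with 6.12 per Mb.

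By whole chromosome, the density of each V5 list followed the other more closely than RB. Across the 22 autosomes, which share their libraries, Spearman's rho of intervals per Mb was 0.899 between the doxycycline and untreated lists. It was 0.423 between the doxycycline and C4-2 RB lists and 0.385 between the untreated and C4-2 RB lists. Chromosome 19, rich in genes, had the highest RB density among the autosomes, 7.34 per Mb, but only 18.8 doxycycline and 4.53 untreated V5 intervals per Mb. In windows of 1 Mb the doxycycline list had a median of 22 intervals and at most 65, and the untreated list a median of 5 and at most 15. Across these 2888 windows rho was 0.439 between the doxycycline and untreated lists, 0.416 between the doxycycline and RB lists and 0.260 between the untreated and RB lists. For gained intervals it was 0.355 with lost intervals and 0.404 with RB, so the closer match to the other V5 list was not seen at this scale for gained intervals. These rho values describe the lists and were not tested.

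**Figure D5:**
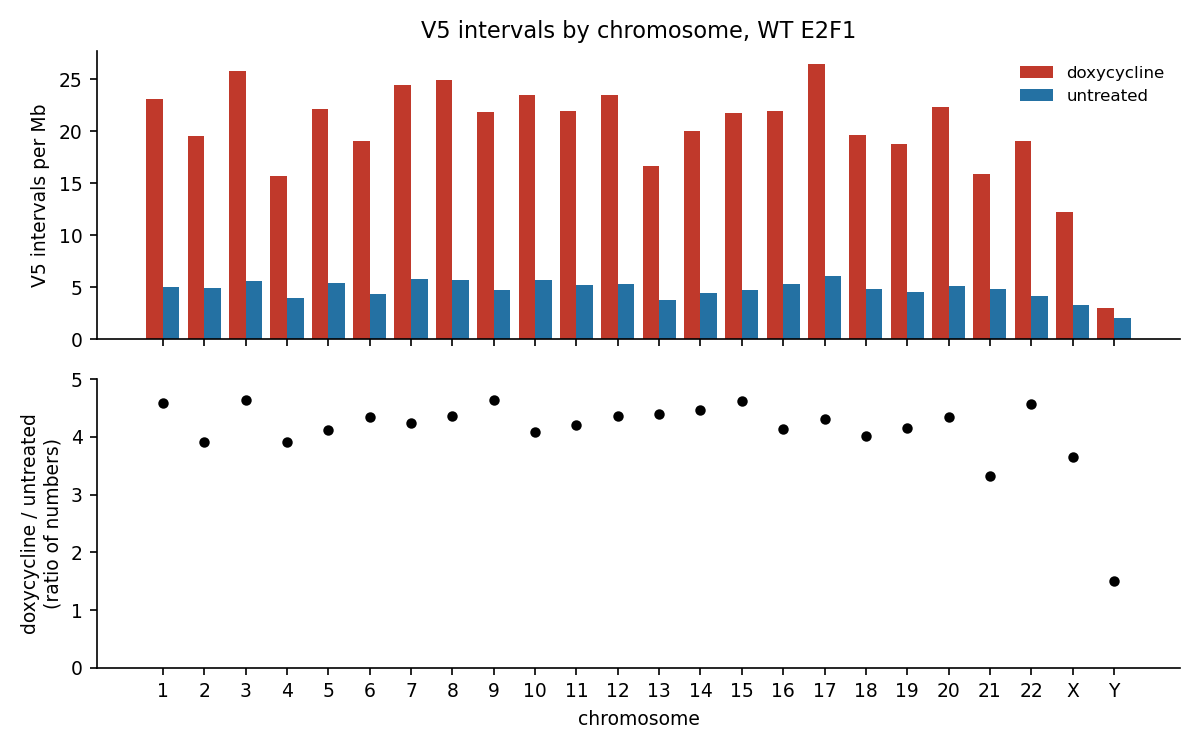
V5 intervals per Mb by chromosome for the doxycycline and untreated lists (top), and the ratio of their numbers (bottom). The ratio lies between 3.32 and 4.64 on the autosomes and at 1.50 on chromosome Y.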

How the data were processed

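Sonicated chromatin was immunoprecipitated and built into libraries with a SMARTer ThruPLEX kit, as the labels' protocols state. MACS2 2.1.0, BWA 0.7.9a, SAMtools 1.2, FastQC 0.11.9 and the build hg19 are named in the submitters' processing notes. Their settings, any duplicate removal and any control library were not given in the sources used here. Per group, the authors' deposit holds 1 interval list. Interval names of the V5 lists show merged libraries, and those of the C4-2 RB list carry a single library. Each deposited interval has a display score (not used), a fold enrichment (a linear ratio), its p-value and q-value as −log10, and a deposited summit offset in bases. The labels do not say whether the 2 libraries of a group came from separate cultures.

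Positions are hg19, counted from 1. The MACS2 fold is (reads + 1) over (background + 1), and its p is the upper tail of a Poisson count with that background, so summit reads and local background were solved from the deposited fold and −log10 p. Recomputed −log10 p differed from the deposited values by at most 0.00016, and the solution was tested on simulated data. The floor is the smallest background found in 5 or more intervals. Depth is the floor divided by the smallest width, and high background means 10 floors or more. Intervals overlapping by at least 1 base were shared. Named intervals were the 5 low-background intervals of highest −log10 q in each class (shared ones ranked in the doxycycline list). Wilson intervals were set at 95%. Reads from PCR without molecular identifiers are not independent molecules, so these intervals cover counting error only. Python 3.11.15, NumPy 2.4.6, pandas 2.3.3 and SciPy 1.17.1 were used.

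Alternatives were other overlap rules, a −log10 q of at least 5, equal list length, scaled depth, wider intervals only, and lists without high background or without chromosomes Y and M. The gene positions at hand were of another build, so nearby genes, promoters, motifs and sequences are not analysed here, and the gene part of the naming rule was not applied. Members and lists were chosen with earlier results of these data known.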

Additional observations from a re-analysis of the deposited data

Results flagged for a closer look

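The same comparison of doxycycline with no doxycycline can be made in 3 other pairs of V5 lists, and in each of them a value pointed the other way from the WT pair. The differences between pairs were not tested, since each list stands for a whole group.

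Counting V5 intervals of any background, in the WT line under GSK2879552, doxycycline plus GSK2879552 held 485 low-background C4-2 RB sites alone and GSK2879552 held 389 alone, a net difference of 96 sites toward doxycycline. In the WT pair without the inhibitor the numbers were 214 with doxycycline alone and 438 untreated alone, a net of -224. With low-background V5 intervals the net was 72 under the inhibitor and -254 without it. At RB sites found in both cell lines, for V5 intervals of any background, the net was 75 under the inhibitor and -204 without it. The net was -212 in the K185R pair and -235 in the K185R pair under GSK2879552, so WT under the inhibitor was the one pair of the 4 with a net toward doxycycline.

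List length pointed the other way in the K185R line. K185R cells gave 22328 intervals with doxycycline and 55681 untreated, a ratio of 0.401. Under GSK2879552 the ratio in K185R was 0.353 (3498 against 9899). The WT ratios were 4.24 without the inhibitor and 1.38 with it. Depth was 1.12 reads per kilobase in the K185R doxycycline list and 1.79 in the K185R untreated list. Under GSK2879552 it was 0.812 with doxycycline and 0.716 without in WT, and 0.837 and 1.02 in K185R. In every pair, the WT pair without inhibitor included, the longer list was also the deeper one. With the WT doxycycline list scaled to the untreated depth, 57804 of its intervals (90.3%) stayed and the WT ratio was 3.83. The K185R pairs were not scaled.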

How the results depend on the processing

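The share of lost intervals at C4-2 RB sites exceeded that of gained intervals under each of 9 alternatives. More RB sites were held by the untreated list alone than by the doxycycline list alone under each of the 7 alternatives that bear on it. With −log10 q of at least 5, 3416 intervals were gained and 623 lost, 57.6% of the untreated list was shared, the doxycycline list reached 8.48% and the untreated list 8.87% of RB sites, 147 (doxycycline) and 182 (untreated) sites were held by one list alone, and 3.78% of gained and 28.7% of lost intervals lay at RB sites. With the doxycycline list shortened to the untreated length, 13247 were gained, 12.3% was shared, the doxycycline list reached 10.03% of RB sites and held 151 alone, and 1.01% of gained intervals lay at RB sites. With only intervals wider than the smallest width, 30357 were gained and 4333 lost, 28.2% was shared, the lists reached 10.3% (doxycycline) and 11.7% (untreated) of RB sites, and 0.583% of gained and 7.27% of lost intervals lay there. Without high background, 22.3% was shared, the lists reached 5.78% (doxycycline) and 8.50% (untreated), and 0.294% of gained intervals lay at RB sites. Without RB sites of high background the reach was 9.25% (doxycycline) and 11.8% (untreated), and 0.334% of gained intervals lay there. With an overlap of 50% of both intervals, 19.7% was shared and 0.454% of gained intervals lay at RB sites. With summits within 100 bases, 20.6% was shared, and 0.493% of gained and 4.35% of lost intervals lay at RB sites. With depth scaled by 0.867, 23.8% was shared. Without chromosomes Y and M, an alternative chosen after seeing the data like those on RB sites held by one list and on gained and lost intervals at RB sites, the doxycycline list reached 11.1%.

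No paired analysis was possible because each group's libraries were merged into 1 list whose columns carry no replicate, and for the same reason leaving out a library was not possible. Results by gene start and their alternatives were not run for lack of gene positions in the files' build. Depth limits what a missing interval means: at 3 to 5 reads per summit, absence from a list does not show absence of binding.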

Other observations

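The densest windows of the doxycycline list lay together on chromosome 13. The 5 windows of 1 Mb with the most doxycycline intervals held 54 to 65 of them, against 3 to 10 untreated intervals, and all 5 lay between positions 24000001 and 33000000 of chromosome 13. The stretch was chosen after seeing the doxycycline counts, so its value in that list is a description. Counts and shares for the stretch are of the low-background intervals of each list. It held 460 doxycycline intervals, a share of 0.726% (Wilson interval 0.663 to 0.795), and 69 untreated intervals, a share of 0.476% (0.376 to 0.602). In the other pairs of lists, the share was also higher with doxycycline: 0.703% in K185R with doxycycline and 0.546% in K185R untreated, 0.638% in WT with doxycycline plus GSK2879552 and 0.570% in WT with GSK2879552, and 0.929% in K185R with doxycycline plus GSK2879552 and 0.669% in K185R with GSK2879552. The counting intervals of those 3 pairs overlapped. Among all lists the stretch stood at 1.53 to 3.22 times the list's own median window, the C4-2 RB list (2.11 times) and the VCaP RB list (1.64 times) included.

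Lost summits lay nearer to the other WT list than gained summits did. The nearest untreated summit was a median of 62.2 kb from a gained summit, and the nearest doxycycline summit a median of 14.4 kb from a lost one, where the doxycycline list is the denser. Within 1 kb of a summit of the other list, without overlap of the intervals, lay 565 gained (0.938%) and 467 lost intervals (4.12%).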
